A study of Mus musculus with 6 samples.

Results

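The phosphoinositide 3-kinase (PI3K), Akt and FOXO axis was followed here through 9 genes, chosen by symbol: *Pik3cd*, *Pik3r1*, *Pik3ip1*, *Inpp5d*, *Akt1*, *Akt2*, *Foxo1*, *Foxo3* and *Foxo4*. All 9 were found among the 35602 genes of a count table and among the 34714 genes of a further pair of libraries. CD4+ T cells sorted from mouse spleen were stimulated through CD3 and CD28 and treated either with the MAPK13 inhibitor MAPK13-IN-1 (MAPK13-inhibitors-treated) or with its solvent (DMSO-treated), with 3 libraries per group. The series design has the inhibitor or DMSO present for 72 h of stimulation, whereas the labels of replicates 2 and 3 have them added after day 1, so the time of exposure is not settled. Replicates 2 and 3 of each group came from wild-type (WT) cells, which by those labels were given 17.1 µM inhibitor or 0.1 µl DMSO, and their mRNA was purified on poly-T beads. Replicate 1 of each group came from a strand-specific mRNA kit, and its labels give no dose, day of addition or genotype, so the kit and any difference in culture cannot be told apart. For replicates 2 and 3 the totals were 26874805 and 28487403 counts with DMSO and 33854760 and 32617702 counts with the inhibitors. The values of the replicate 1 pair are read, from their range and sums, as FPKM, in which fragments are divided by the length of the gene and the size of the library, and they have no error because each group has 1 such library. Levels of the count libraries are counts per 1000000 (CPM) scaled by TMM, trimmed-mean scaling. No label says that replicates came from separate animals or cultures, so the p-values measure only the spread between these samples, which may be technical.

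In T cells, antigen receptor and costimulation signals recruit PI3K to the membrane, where it makes the lipid PIP3 that brings Akt kinases to be activated. Active Akt phosphorylates FOXO transcription factors, which then leave the nucleus, so that genes of quiescence, homing and survival control lose these factors. Lipid phosphatases and inhibitory membrane proteins hold the pathway back. None of the phosphorylation steps is read out by mRNA.

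The labelled cell type was checked on marker genes before the axis was examined. Of 10 CD4 T cell markers, 9 were matched in the count table, and their summed level, scaled by library totals, was 1805 and 1833 CPM with DMSO and 1133 and 1241 CPM with the inhibitors. Their most abundant gene with DMSO, *Cd5*, by counts not corrected for length as for each marker list, was at 408 and 419 CPM with DMSO and at 161 and 208 CPM with the inhibitors. At a Benjamini-Hochberg adjusted p under 0.05 in edgeR's quasi-likelihood test, 0 of these 9 markers were higher and 7 were lower, with a median log2 fold change of −1.20, whereas *Cd4* itself had a log2 fold change of 0.00 (95% interval −0.12 to 0.12). In 6 of 11 alternative settings, the RLE, upper-quartile and library-total scalings and the fit without MAPK13-inhibitors replicate 3 among them, 1 CD4 T cell marker was higher. Fewer cells of a type and less RNA per cell cannot be told apart in such bulk libraries. B cell markers were also abundant: the 10 matched of 12 summed to 1095 and 1069 CPM with DMSO and to 1375 and 1386 CPM with the inhibitors. Of these 10, 7 were higher and 2 were lower, with a median log2 fold change of 0.40. None of the B cell markers was at 0. The 10 macrophage and monocyte markers were scarce and summed to 13.2 and 11.5 CPM with DMSO and 45.1 and 36.9 CPM with the inhibitors, with *Cd68* the most abundant with DMSO, and 6 of 7 tested were higher and 0 were lower.

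The makeup of the replicate 1 pair differed. CD4 T cell markers summed to 1315 FPKM with DMSO and 1196 FPKM with the inhibitors, and B cell markers summed to 52.3 and 36.5 FPKM, so their sum was lower with the inhibitors there. Macrophage and monocyte markers summed to 3.02 and 9.54 FPKM. CD8 T cell markers had a higher sum with the inhibitors in this pair (3.49 and 8.39 FPKM), against their lower sum in the counts. NK cell markers summed to 4.01 and 6.77 FPKM, but their main gene *Gzma* was lower with the inhibitors here too (3.34 and 2.37 FPKM). Erythroid markers summed to 0.931 and 1.94 FPKM and neutrophil markers to 0.562 and 0.368 FPKM. The remaining lists were at low levels in the count libraries. The CD8 T cell pair of markers summed to between 5.76 and 11.2 CPM (0 higher and 2 lower of 2 tested, most abundant *Cd8b1*), and NK cell markers to between 3.72 and 11.4 CPM (0 higher and 1 lower of 2 tested, most abundant *Gzma*, with *Klra1* at or under 3 counts in each library). Erythroid markers summed to 7.52 and 7.20 CPM with DMSO and 94.4 and 67.1 CPM with the inhibitors (6 higher and 0 lower of 7 tested, with *Hbb-bs* the most abundant). Neutrophil markers summed to between 0.447 and 0.889 CPM, with 1 higher and 0 lower of 1 tested (1 was lower without DMSO replicate 2 or without MAPK13-inhibitors replicate 3), their most abundant gene with DMSO was *Cxcr2*, and *S100a8*, *S100a9*, *Retnlg* and *Elane* were at or under 3 counts in each library. The part of other cell types in the results below was not tested.

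The gene of the inhibited kinase differed between the library sets as well. *Mapk13*, which encodes p38δ, had 79 and 74 counts with DMSO and 21 and 51 counts with the inhibitors, a log2 fold change of −1.47 that moved to −0.94 without MAPK13-inhibitors replicate 2 and to −2.29 without MAPK13-inhibitors replicate 3. The replicate 1 pair had 0.191 FPKM with DMSO and 3.28 FPKM with the inhibitors, the opposite direction.

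Across the axis, *Pik3r1*, *Pik3ip1*, *Inpp5d* and *Foxo3* rose while *Akt1*, *Akt2* and *Foxo4* fell in the count libraries, under every scaling tried. All 9 members passed the filter on low counts. At this threshold of an adjusted p under 0.05 (edgeR's quasi-likelihood test, Benjamini-Hochberg adjustment), 8 of the 9 were called, where 63.8% of all 16269 genes tested were called. Of these, 4 were higher, beside 31.5% of all genes, and 4 were lower, beside 32.3% of all genes. With an absolute log2 fold change over 1 as a further condition, 1 member was called (*Pik3ip1*, higher), beside 23.4% of all genes (of all genes, 13% higher and 10.4% lower). The median log2 fold change was 0.06 over the members and 0.01 over all genes tested. The share of members called thus lay above that of all genes by few genes, and below it once size was a condition, and nothing here is read as particular to the axis. *Pik3cd* was called as well with upper-quartile scaling and library totals, and *Foxo1* was not. The scaling sets where 0 lies: with library totals alone the fold changes of all genes were higher by 0.13 (median), so changes below that size are given relative to TMM.

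**Figure D1:**
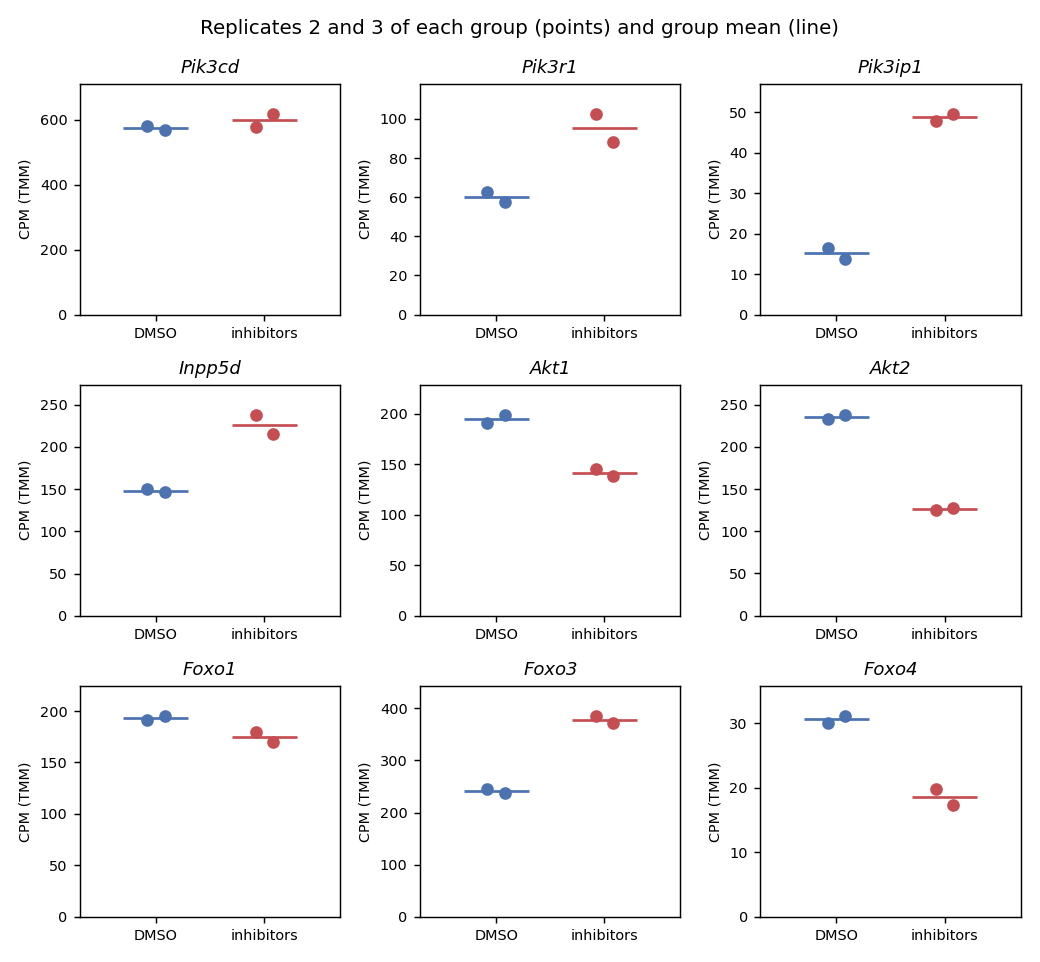
TMM-scaled CPM of the 9 genes in replicates 2 and 3 of each group, with points for libraries and a line for the group mean, each vertical axis starting at 0. For *Pik3cd* the MAPK13-inhibitors libraries (578 and 619 CPM) and the DMSO libraries (567 and 581 CPM) cross. The share of all genes tested whose groups do not overlap was not counted, so separation of a gene's groups is not read as particular to the axis. Of all 16269 genes tested, 63.8% were called.

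The members include a catalytic and a regulatory subunit of PI3K. *Pik3cd* encodes the catalytic subunit delta, the leukocyte form of the enzyme. It was at 581 and 567 CPM with DMSO and at 578 and 619 CPM with the inhibitors. The groups overlapped, and the log2 fold change was 0.06 (standard error 0.0525, 95% interval −0.06 to 0.18), short of the threshold (Benjamini-Hochberg adjusted p = 0.340, edgeR quasi-likelihood test). It passed as a rise of 0.18 with library totals alone, 0.14 with upper-quartile scaling and 0.11 without MAPK13-inhibitors replicate 2. Its FPKM in the replicate 1 pair were 54.0 with DMSO and 66.0 with the inhibitors. *Pik3r1* encodes regulatory subunits that stabilise the catalytic subunits and dock them to phosphorylated receptors. Its level was 62.5 and 57.4 CPM with DMSO and 103 and 88.1 CPM with the inhibitors. Both MAPK13-inhibitors libraries lay above both DMSO libraries, and replicate 2 was the higher in each group. The rise was 0.67 on the log2 scale (standard error 0.0845; Benjamini-Hochberg adjusted p = 5.79e-05, edgeR quasi-likelihood test). *Pik3r1* went from 8.08 to 16.2 FPKM in the replicate 1 pair, a log2 ratio of 0.92 on the scale of log2(FPKM + 1).

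*Pik3ip1* and *Inpp5d* encode brakes of the pathway. *Pik3ip1* is a transmembrane protein that binds the catalytic subunit and lowers its activity. It had 427 and 371 counts with DMSO and 1700 and 1683 counts with the inhibitors, or 16.6 and 13.6 against 47.9 and 49.7 CPM. The MAPK13-inhibitors libraries were close to each other and far above the DMSO libraries. This was the largest change of the axis, a 3.23-fold rise (log2 fold change 1.69 with a standard error of 0.103; Benjamini-Hochberg adjusted p = 4.17e-07, edgeR quasi-likelihood test). The replicate 1 pair had 2.99 FPKM with DMSO and 6.24 FPKM with the inhibitors, a log2 ratio of 0.86, so the direction was the same in both sets of libraries.

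*Inpp5d* encodes SHIP, a hematopoietic phosphatase that removes a phosphate from PIP3. Its level was 150 and 146 CPM with DMSO and 238 and 215 CPM with the inhibitors. The groups did not overlap, and the log2 fold change was 0.61 (standard error 0.0634; Benjamini-Hochberg adjusted p = 1.41e-05, edgeR quasi-likelihood test). In the replicate 1 pair it was at 18.9 and 18.4 FPKM, a log2 ratio of −0.03, which turned to 0.02 when both libraries were scaled to the same sum. The rise of *Inpp5d* was thus seen only in the count libraries, where the B cell marker sum was also higher with the inhibitors, and not in the pair where that sum was lower. The macrophage and monocyte marker sum was higher with the inhibitors in both sets of libraries, the pair without a rise of *Inpp5d* included (3.02 and 9.54 FPKM). *Inpp5d* is expressed in B cells and myeloid cells as well as in T cells, and the part of those cells in its change was not tested.

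**Figure D2:**
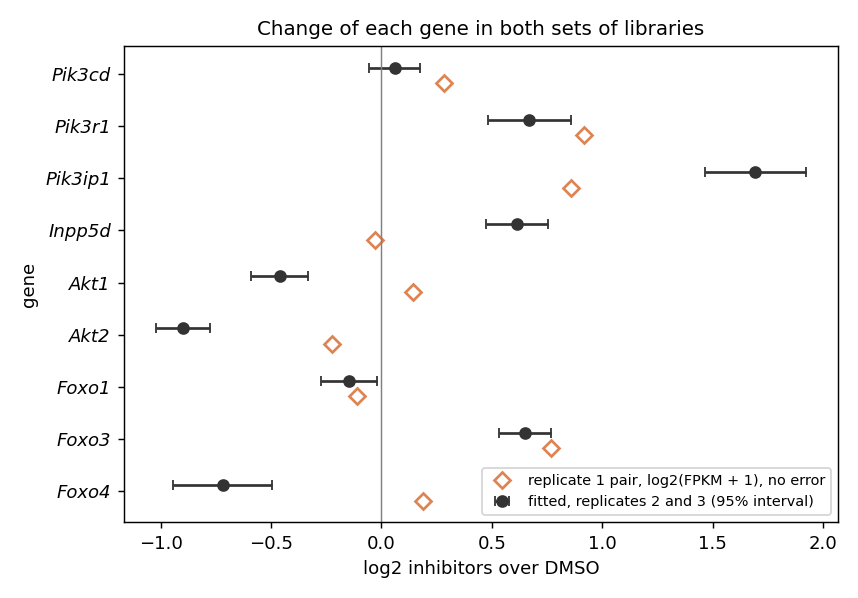
Log2 difference (MAPK13-inhibitors-treated over DMSO-treated cells) of each gene: filled points are the edgeR fit of replicates 2 and 3 with 95% intervals, and open diamonds are the replicate 1 pair on the scale of log2(FPKM + 1), with no error. *Akt1*, *Foxo4* and *Inpp5d* lie on opposite sides of 0 in the library sets, by −0.46 and 0.15, −0.72 and 0.19, and 0.61 and −0.03 (0.02 with the pair scaled to the same sum).

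The Akt kinases, which act downstream of PIP3, were lower in the count libraries. *Akt1*, the form found in nearly all tissues, was at 191 and 199 CPM with DMSO and at 145 and 138 CPM with the inhibitors. The groups did not overlap, and *Akt1* fell by 0.46 on the log2 scale (standard error 0.0584; Benjamini-Hochberg adjusted p = 6.06e-05, edgeR quasi-likelihood test). The replicate 1 pair had 59.3 FPKM with DMSO and 65.7 FPKM with the inhibitors, a log2 ratio of 0.15 in the opposite direction. *Akt2*, best known for its role in insulin-driven glucose uptake, was at 233 and 238 CPM with DMSO and at 125 and 128 CPM with the inhibitors. The values within each group were nearly the same, and the groups were far apart. *Akt2* had the largest fall of the axis, at −0.90 on the log2 scale (standard error 0.0554; Benjamini-Hochberg adjusted p = 4.39e-07, edgeR quasi-likelihood test). Its level in the replicate 1 pair was 43.9 FPKM with DMSO and 37.5 FPKM with the inhibitors, a log2 ratio of −0.22.

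The ratio of *Akt2* to *Akt1* does not depend on how libraries are scaled. As a ratio of counts, not corrected for gene length, it was 1.22 and 1.20 with DMSO and 0.862 and 0.924 with the inhibitors. As a ratio of FPKM in the replicate 1 pair it was 0.740 with DMSO and 0.571 with the inhibitors. In both sets it was lower in every MAPK13-inhibitors library than in every DMSO library, although *Akt1* itself had opposite directions. An exact two-sided permutation test of 2 libraries against 2 cannot go below p = 0.33, so the ratios are given without a test.

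The FOXO factors, targets of Akt, moved apart from each other. *Foxo1*, which maintains naive T cell homing and survival genes, was at 192 and 195 CPM with DMSO and at 180 and 170 CPM with the inhibitors. The MAPK13-inhibitors libraries lay below the DMSO libraries by a small margin, with a log2 fold change of −0.15 (95% interval −0.27 to −0.02; Benjamini-Hochberg adjusted p = 0.0430, edgeR quasi-likelihood test). This call was lost in 7 of 11 alternative settings, among them RLE scaling (−0.13), library totals alone (−0.02) and the fits without DMSO replicate 2 (−0.17) or without DMSO replicate 3 (−0.14). The replicate 1 pair had 25.5 and 23.5 FPKM. *Foxo3*, a factor tied to cell death and stress resistance genes, was at 244 and 238 CPM with DMSO and at 385 and 372 CPM with the inhibitors. The groups were well separated, and *Foxo3* rose by 0.65 on the log2 scale (standard error 0.0526; Benjamini-Hochberg adjusted p = 2.59e-06, edgeR quasi-likelihood test). It was also higher in the replicate 1 pair, at 12.4 and 21.8 FPKM (log2 ratio 0.77).

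*Foxo4*, a further factor of the family and encoded on the X chromosome, was at 30.0 and 31.1 CPM with DMSO and at 19.9 and 17.2 CPM with the inhibitors. Both MAPK13-inhibitors libraries were below both DMSO libraries, and *Foxo4* fell by 0.72 on the log2 scale (standard error 0.100; Benjamini-Hochberg adjusted p = 0.000121, edgeR quasi-likelihood test). Replicate 1 went the other way, from 6.93 to 8.05 FPKM. Within libraries, the ratio of *Foxo3* to *Foxo1* counts was 1.28 and 1.22 with DMSO and 2.14 and 2.19 with the inhibitors, and the FPKM ratio in the replicate 1 pair was 0.486 and 0.926. The ratio was higher with the inhibitors in both sets of libraries. The ratio of *Foxo4* to *Foxo1* counts was 0.157 and 0.159 with DMSO and 0.111 and 0.102 with the inhibitors, but its FPKM ratio in the replicate 1 pair was 0.272 and 0.342.

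Only the FPKM of the replicate 1 pair allow levels to be compared between genes, since they are scaled for length. Among the 4 class I catalytic subunit genes, *Pik3cd* held 76.1% of the summed FPKM with DMSO and 77.8% with the inhibitors. Among *Pik3r1*, *Pik3r2* and *Pik3r3*, the share of *Pik3r1* was 48.6% with DMSO and 56.5% with the inhibitors. Of the FOXO sum, *Foxo1* held 56.9% with DMSO and 44.1% with the inhibitors and *Foxo3* held 27.7% and 40.8%. *Foxo4* held 15.5% and 15.1%, and *Foxo6* was listed at 0 with DMSO. These shares rest on 1 library per group.

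Of the 8 called members, 5 had the same direction in the replicate 1 pair and 3 (*Akt1*, *Foxo4* and *Inpp5d*, the last only until the pair was scaled to the same sum) did not. For comparison, 66.2% of the 10138 called genes with a difference in that pair had the same direction, so the members' share was close to that of all called genes.

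Other genes of the pathway were read from 8 lists by role, which share some genes with each other and with the 9 members. Without the members, the lists held 104 genes, of which 102 were tested: 46 were higher (45.1%) and 27 were lower (26.5%) by the edgeR test, with a median log2 fold change of 0.16. Over all genes tested these shares were 31.5% and 32.3% and the median was 0.01, and the counts of each list below, most of them small, are read beside those shares and not as particular to a list. Among 9 class I PI3K subunits, members included, 4 were higher and 1 was lower. *Pik3r5*, a regulatory subunit of the gamma enzyme, rose from a mean of 47.4 ± 0.396 to 109 ± 3.66 CPM (SD, n = 2 per group, log2 fold change 1.20). *Pik3r6*, an alternative regulatory subunit of that enzyme, rose from 6.64 ± 0.124 to 15.9 ± 1.42 CPM (1.26). The gamma catalytic subunit *Pik3cg* fell from 43.7 ± 0.469 to 32.6 ± 2.60 CPM (−0.42). The same directions were seen in the replicate 1 pair, at 5.14 and 18.5 FPKM for *Pik3r5*, 0.476 and 1.17 FPKM for *Pik3r6* and 3.46 and 2.73 FPKM for *Pik3cg*.

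Of 13 receptors and adaptors that recruit PI3K, 7 were higher and 3 were lower, and the number higher was 4 without DMSO replicate 3. *Pik3ap1*, an adaptor best known from B cells, rose (log2 fold change 0.98), as did the growth factor receptor *Igf1r* (0.81). *Trat1*, a T cell receptor-associated adaptor, fell (−1.47), as did the insulin receptor substrate *Irs2* (−1.26). In the replicate 1 pair *Trat1* went from 25.2 to 7.30 FPKM, whereas *Irs2* went from 6.85 to 19.6 FPKM, against its fall in the counts, and *Igf1r* from 5.75 to 5.01 FPKM, against its rise. Of 8 phosphoinositide phosphatases and PI3K brakes, *Pik3ip1* and *Inpp5d* included, 4 were higher and 2 were lower, with a list median of 0.33. *Inpp4b* (−0.65) and *Inpp5k* (−0.62), which act on other phosphoinositides as well, fell, but *Inpp5k* went from 17.0 to 24.8 FPKM in the replicate 1 pair.

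Among 16 Akt kinases, activators and brakes, 4 were higher and 7 were lower, with a list median of −0.03. *Trib3*, a pseudokinase that binds Akt, had the smallest p of all pathway genes named here. Its mean was 232 ± 14.3 CPM with DMSO and 37.9 ± 0.246 CPM with the inhibitors (SD, n = 2 per group; log2 fold change −2.61), and the replicate 1 pair had 91.8 and 14.7 FPKM. Components of the mTOR complex that phosphorylates Akt moved in both directions. *Mapkap1* fell (−1.70) while *Rictor* rose (0.71), and the Akt phosphatase *Phlpp2* rose as well (0.50). Of 12 Akt substrates, 11 were tested and 4 were higher and 3 were lower, *Foxo1*, *Foxo3* and *Foxo4* among them. *Tbc1d4*, which controls glucose transporter traffic, rose (1.03). *Tsc2*, a brake of mTOR complexes, fell (−0.28, or −0.15 and not called with library totals alone), and was at 9.71 and 13.1 FPKM in the replicate 1 pair. Of 14 PIP3-binding effectors of lymphocytes, 9 were higher and 2 were lower, with a list median of 0.32. *Vav1*, an exchange factor of antigen receptor signalling, fell by 0.38 on the log2 scale. *Dapp1*, an adaptor of B and T cells, and the GTPase activator *Rasa3* rose (1.40 and 1.13). *Dapp1* and *Rasa3* had the same directions in the replicate 1 pair, at 6.78 and 13.7 and at 8.55 and 18.9 FPKM. The T cell gene *Trat1* fell with the CD4 T cell markers, and *Pik3ap1* rose with the B cell markers in the count libraries. In the replicate 1 pair *Pik3ap1* went from 3.36 to 3.91 FPKM, a higher value where the B cell marker sum was lower. The part of cell makeup in these changes was not tested.

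**Figure D3:**
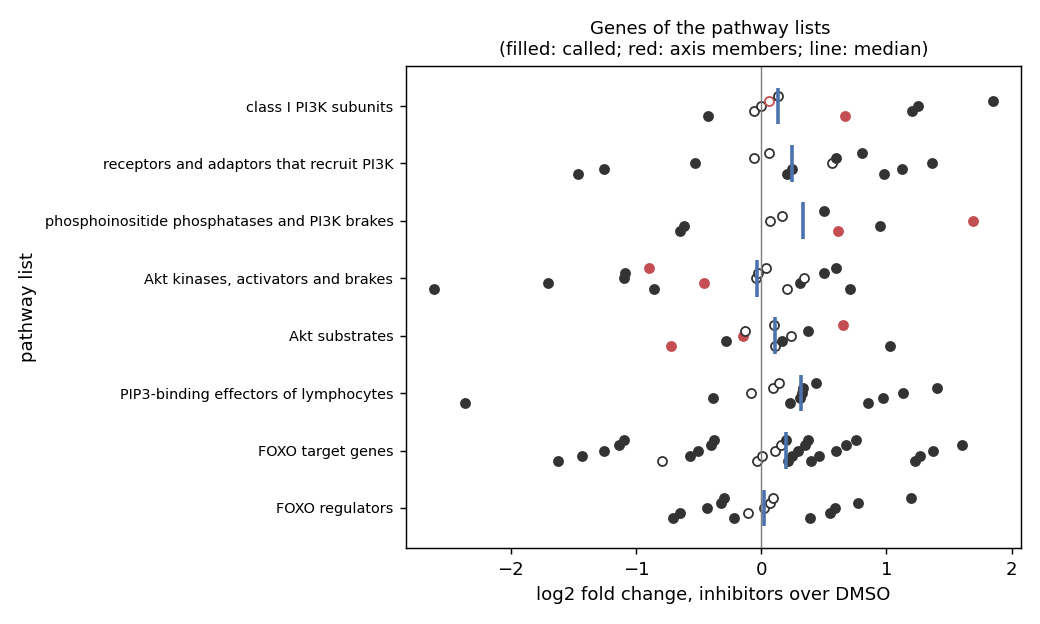
Log2 fold change of each tested gene of the 8 pathway lists from the edgeR fit of replicates 2 and 3, filled where called, red for the 9 axis genes, with a line at each list's median. List medians lie between −0.03 and 0.33, and *Trib3* (−2.61) lies farthest to the left.

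FOXO target genes were mixed in direction, as were the FOXO factors. Of 30 listed, 29 were tested, 15 were higher and 9 were lower, and the list median was 0.20. *Bcl2l11*, which encodes the death-promoting protein BIM, rose, at a mean of 121 ± 6.17 CPM with DMSO and 283 ± 10.1 CPM with the inhibitors (SD, n = 2 per group; log2 fold change 1.23), and *Gadd45b*, a stress response gene, rose from 75.7 ± 0.250 to 230 ± 21.9 CPM (1.60). Both were also higher in the replicate 1 pair, at 4.42 and 19.6 FPKM for *Bcl2l11* and 30.4 and 147 FPKM for *Gadd45b*. The inhibitory receptor *Ctla4* went from 250 ± 7.95 to 81.3 ± 12.0 CPM (−1.62), and *Irs2*, given above, is on this list too. *Ctla4* was at 84.9 and 112 FPKM in the replicate 1 pair, the opposite direction.

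Some of the homing and survival genes that depend on *Foxo1* in naive T cells were chosen for description after their values were seen. *Il7r*, the IL-7 receptor chain, rose by 0.40 and *Ccr7*, a chemokine receptor, by 0.21, but both calls were lost without DMSO replicate 2 (0.28 and 0.19), and *Ccr7* was at 0.12 without MAPK13-inhibitors replicate 3. *Klf2* (0.11, 95% interval −0.14 to 0.36) and *S1pr1* (0.16, −0.10 to 0.42) did not pass the test, although *S1pr1* did with library totals alone (0.29). Both moved with single libraries: *Klf2* was at 0.01 without MAPK13-inhibitors replicate 3, 0.07 without DMSO replicate 3 and 0.19 without MAPK13-inhibitors replicate 2. *S1pr1* was at 0.07 without MAPK13-inhibitors replicate 3, 0.07 without DMSO replicate 2 and 0.25 without MAPK13-inhibitors replicate 2. In the replicate 1 pair *Ccr7* was at 116 and 294 FPKM and *S1pr1* at 6.78 and 16.1 FPKM, while *Klf2* was at 3.30 and 2.62 FPKM. Of 15 FOXO regulators, 5 were higher and 6 were lower, with a list median of 0.02. *Stk4*, a kinase that can drive FOXO into the nucleus, rose (0.59), as did the kinase gene *Mapk8* (0.78). *Ywhag*, which encodes an adaptor that binds phosphorylated FOXO, fell (−0.70), and so did *Cdk2* (−0.65). In the replicate 1 pair *Ywhag* was at 40.2 and 40.6 FPKM.

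Genes with profiles most like the extreme members were found by the Euclidean distance between centred log2 CPM over the 4 count libraries. Nearest to *Pik3ip1* were *Efnb2* (distance 0.0267), *Klf12* (0.0474) and *Tmtc3* (0.0670), with log2 fold changes of 1.73, 1.74 and 1.64. Nearest to *Akt2* were *Mrfap1* (0.00917), *Gm19723* (0.00978) and *Psmc3* (0.0191), with log2 fold changes of −0.89, −0.93 and −0.91. These distances rest on 4 libraries, and the neighbours are a description only.

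The 9 genes lie on 9 chromosomes of the GRCm38 build. *Pik3ip1* is at chr11:3330401-3342971 on the plus strand and *Akt2* at chr7:27591552-27640826 on the plus strand. *Akt1* is at chr12:112653821-112674884 on the minus strand, *Foxo1* at chr3:52268336-52353221 on the plus strand and *Foxo3* at chr10:42181841-42276755 on the minus strand. By GENCODE exons, an antisense gene (*Gm20402*) covers 7.78% of the exon bases of *Foxo1*, and *Gm12592* covers 2.13% of those of *Pik3ip1* on the other strand. Whether the counting used strand was not given in the sources used here, so reads from these stretches cannot be told apart.

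Promoters were read from RefSeq (GRCm38.p6; 250 bases before to 50 after a start), where 8 of the 9 members matched with 15 promoters; *Foxo4* was the other. A FOXO core motif, GTAAACA or its reverse complement TGTTTAC, was searched on both strands because FOXO factors are the transcription factors of the axis. A TCF core motif, ATCAAAG or its reverse complement CTTTGAT, was searched because the study is about the T cell factor Tcf1. The motifs do not overlap in the promoters printed. Of 32851 promoters of this length, 3.65% hold the FOXO motif and 3.73% the TCF motif. Among the members' promoters, 1 holds the FOXO motif (*Akt1*, chr12:112674835-112675134, minus strand) and 1 the TCF motif (*Akt2*, chr7:27591302-27591601, plus strand, at 2 places). These are shown, with the motifs in capitals, because no other promoter of the members holds either motif. A match is a description and not a binding site, and a link to the change of either gene was not tested.
Akt1: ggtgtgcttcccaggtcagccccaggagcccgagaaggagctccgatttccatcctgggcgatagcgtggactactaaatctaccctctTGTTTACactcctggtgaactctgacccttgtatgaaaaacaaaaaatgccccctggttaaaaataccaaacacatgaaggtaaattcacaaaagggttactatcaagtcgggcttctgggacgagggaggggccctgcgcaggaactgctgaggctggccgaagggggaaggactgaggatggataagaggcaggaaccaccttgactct
Akt2: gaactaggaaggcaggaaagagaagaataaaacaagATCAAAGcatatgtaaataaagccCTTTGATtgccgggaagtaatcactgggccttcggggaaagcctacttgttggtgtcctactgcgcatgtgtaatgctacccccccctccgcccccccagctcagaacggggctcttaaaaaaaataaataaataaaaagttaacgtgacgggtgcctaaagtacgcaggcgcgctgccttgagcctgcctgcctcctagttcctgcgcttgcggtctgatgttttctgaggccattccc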

How the data were processed

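For replicates 2 and 3 the authors deposited raw counts per gene, and for the replicate 1 pair values read here as FPKM, normalized by the authors. The submitters' processing notes list, without roles, fastp 0.21.0, HISAT2 2.1.0, StringTie 2.1.5 and DESeq2 1.30.1 for the former and FastQC and HISAT2 for the latter, with mm10 (GRCm38). Counts were filtered with filterByExpr (minimum count 10, minimum total 15; 16269 genes), scaled by TMM and compared, 2 libraries against 2, with the quasi-likelihood test of edgeR 4.0.16 in R 4.3.3, with Benjamini-Hochberg adjustment over all genes tested. The standard error is the absolute log2 fold change over the square root of F. Marker sums used library totals. FPKM log2 ratios have a pseudocount of 1. Replicates differed by more than counting noise (mean chi-square per gene 2.98 with DMSO and 9.65 with the inhibitors, where 1 is expected). The genes named are the members, up to 2 called genes with the smallest p in each direction of each pathway list, the most abundant gene and any defining markers at or under 3 counts of each marker list, the nearest profiles and *Mapk13*. Naive T cell genes outside this rule were chosen after their values were seen, and paralogs named for shares are reference. Some genes that the rule takes are not reported here. The members and lists were chosen with earlier results of these data known. Alternatives were RLE, upper-quartile and library-total scaling, DESeq2 1.42.0, other filters, a replicate block, leaving out each library, a pseudocount of 0.1 and FPKM scaled to the same sum.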

Additional observations from a re-analysis of the deposited data

How the results depend on the processing

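The 9 members kept their direction in all 11 alternative settings of the count fit, and 7 of them (all but *Pik3cd* and *Foxo1*) were called in each. *Pik3cd* (0.06) passed the test with upper-quartile scaling (0.14) and with library totals alone (0.18), and ranged from 0.00320 to 0.108 with 1 library left out. *Foxo1* (−0.15) lost its call with RLE scaling (−0.13), upper-quartile scaling (−0.0663), library totals alone (−0.0216), DESeq2 (−0.14) and at least 10 counts in every library (−0.10), and ranged from −0.19 to −0.11 with 1 library left out. Its adjusted p ranged from 0.000437 to 0.762. The fold changes of all genes were also higher, by a median of 0.08 with upper-quartile scaling and 0.13 with library totals alone. The cause of the lost calls was not tested. *Pik3ip1* ranged from 1.55 to 1.82, *Akt2* from −0.93 to −0.77 and *Foxo3* from 0.62 to 0.78 over all settings. When 1 library was left out, the lone sample of its group was assumed to vary like the other group.

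Samples of the groups share only a replicate number. Their same-numbered deviations had a correlation of −0.00641 across 16269 genes. With the replicate number as a block, 10645 genes were called in place of 10374, and again 4 members were higher and 4 lower. The pathway genes other than members were 37 to 58 higher and 24 to 30 lower over the settings.

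*Cd4*, at 0.00, was 0.0133 with RLE scaling, 0.0799 with upper-quartile scaling, 0.12 with library totals alone, 0.00790 with DESeq2 and 0.0443 with at least 10 counts in every library, and ranged from −0.0503 to 0.0412 with 1 library left out. *Inpp5d* in the replicate 1 pair (−0.03) was 0.0196 when scaled to the same sum. The FOXO regulators called higher were 8 in place of 5 and the Akt substrates called lower 1 in place of 3 with library totals alone. Of the neutrophil markers 0 were higher with DESeq2, and of the CD8 T cell markers 1 was lower with DESeq2. Of 462 values of 42 other named genes under the alternatives, 450 kept their direction and their side of the threshold.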

Other observations

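The count comparison rests on 2 libraries per group from 1 set of libraries, and the replicate 1 pair differs from it in kit, in makeup by marker genes and in the direction of *Mapk13*. Which of these goes with the opposite directions of *Akt1*, *Foxo4* and *Inpp5d* was not tested. The depth of the replicate 1 pair was not estimated. Messenger RNA says nothing of PIP3, of Akt phosphorylation or of where FOXO proteins were in the cell. Intervals cover the spread between libraries and counting error only.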
